A study of Mus musculus with 18 samples.

Results

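Mammalian Hox genes encode homeodomain transcription factors that give cells of the embryo their position along the head-to-tail axis. They lie in 4 clusters, named a to d, and within a cluster genes of low paralogue number are active toward the head and genes of high number toward the tail. Fibroblasts keep much of the Hox pattern of the place they came from in culture, Polycomb complexes hold silent Hox genes off, Trithorax complexes keep active ones on, and Pbx and Meis proteins bind DNA together with the Hox proteins. The 38 Hox genes listed for this work, taken by name, were read through all 57 probes that the platform annotation assigns to them. The a and b clusters hold 10 of the genes each, and the c and d clusters 9 each. Of the 45121 probes on the array, 26407 had a detection p under 0.01 on at least 2 of 18 arrays, and these gave 18128 features, with 1 probe standing for each named gene. In these 18128 features 26 Hox genes were present, 8 of cluster a, 7 of b, 6 of c and 5 of d. The other 12 Hox genes stayed too dim for a test.

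The cells were mouse embryonic fibroblasts (MEFs) from E10.0 embryos of a BL6/129/Sv background, immortalized by the 3T3 protocol. They were either JNK1,2 wildtype or jnk1-/-jnk2-/-, the double knockout of the stress kinases that phosphorylate Jun, and all grew on culture inserts in FAD medium with hydrocortisone, insulin, cholera toxin and EGF. Day 0 was taken without keratinocytes, and days 2, 4 and 6 were taken from inserts that shared the medium with differentiating primary human epidermal keratinocytes (NHEK), with new inserts every second day. Each genotype had 1 array before co-culture, 2 for each of days 2 and 4, and 4 for day 6, each from 1, 2 or 3 pooled inserts. The labels name no separate lines or embryos within a genotype, so p-values measure the spread between inserts of what may be a single line of each genotype, and genotype and line cannot be told apart.

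The series as a whole bears on these values in a few ways. The tested probe for Mapk9, the gene of JNK2, lay between 10.07 and 10.49 (normalized log2 signal) in wildtype and between 4.51 and 5.60 in knockout, where 5 of 9 arrays detected it. The probes for Mapk8, the gene of JNK1, were dim in both. The tested one was detected on all 9 arrays of each genotype, at 5.44 to 6.47 in wildtype and 5.71 to 6.36 in knockout. Its day 6 difference of -0.22 did not pass (limma, adjusted p = 0.55). Whether any of these probes lies in the deleted part is not given in the sources used here. Mean bead intensity was 392 to 482 on 12 arrays, the first set, and 581 to 653 on the other 6, the second set, which holds day 6 replicates 2, 3 and 4 of both genotypes and has detection p-values of another kind. The first set detected 37.3% to 40.8% of probes and the second 44.9% to 45.8%. Each day 6 group mixes arrays of both sets, so the spread behind the p-values holds differences between sets as well as between inserts. Of 12 fibroblast markers, 11 were tested and 9 were detected on all wildtype and 8 on all knockout arrays. At day 6, 4 were lower in knockout (Col1a2, Thy1 and Pdgfra among them) and 2 higher (Lum and 1 other), and the summed signal of the list ran from 18711 to 41191 in wildtype and from 13349 to 38814 in knockout. Of the markers of other cells, the tested endothelial (3), macrophage (2) and skeletal muscle (3) genes had no difference past the test at day 6. Of 8 tested keratinocyte genes 1 was lower (Ivl), and the summed signal ran from 772 to 1117 in wildtype and from 626 to 1097 in knockout. Of 5 tested neural and neural crest genes 2 were higher and 1 lower, with a summed signal of 186 to 395 in wildtype and 936 to 2193 in knockout. Map2, a neuronal microtubule gene, was higher by 5.51 ± 0.13 (log2 difference ± standard error). It ran from 5.21 to 5.48 in wildtype and from 9.40 to 10.97 in knockout, and the rise of the sum is mostly that of Map2. Nes was also higher, Sox2 was lower (-0.97 ± 0.33), and Tubb3 (-0.0016) and Foxd3 (0.0022) did not pass. The part of these marker changes in the Hox differences was not tested, and in a bulk sample fewer cells of a type and less RNA per cell cannot be told apart.

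For 4 Hox genes that show the kinds of pattern found, the 250 bases before an annotated start are printed here (RefSeq, GRCm38.p6). The reference tables hold such a window for 22 of the 38 genes. The Hoxb8 window lies inside the annotated extent of the gene (96279401 to 96285325), before a start within it. Hoxb4 was chosen because it was on in wildtype and undetected in knockout, Hoxb8 because it was undetected in knockout and seen on 1 wildtype array though it lies between active genes of that cluster, and Hoxa5 and Hoxa2 because they were on in both genotypes and lower in knockout. Capitals mark TGANTCA (the AP-1 site, the site of Jun), TGATNNAT (a Hox-Pbx site), TATAAA and CCAAT, searched on both strands, and each sequence runs 5′ to 3′ on the strand of its gene.
Hoxb4, chr11:96318017-96318266, plus strand: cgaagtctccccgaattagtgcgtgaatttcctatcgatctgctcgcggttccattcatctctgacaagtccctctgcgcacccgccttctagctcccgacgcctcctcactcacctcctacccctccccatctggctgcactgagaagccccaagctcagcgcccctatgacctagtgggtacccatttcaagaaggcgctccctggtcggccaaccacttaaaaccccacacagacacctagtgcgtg
Hoxb8, chr11:96281655-96281904, plus strand: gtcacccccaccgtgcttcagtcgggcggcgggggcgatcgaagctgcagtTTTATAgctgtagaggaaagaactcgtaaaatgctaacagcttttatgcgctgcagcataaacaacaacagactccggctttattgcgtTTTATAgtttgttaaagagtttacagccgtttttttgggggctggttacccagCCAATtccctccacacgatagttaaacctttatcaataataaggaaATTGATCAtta
Hoxa5, chr6:52204588-52204837, minus strand: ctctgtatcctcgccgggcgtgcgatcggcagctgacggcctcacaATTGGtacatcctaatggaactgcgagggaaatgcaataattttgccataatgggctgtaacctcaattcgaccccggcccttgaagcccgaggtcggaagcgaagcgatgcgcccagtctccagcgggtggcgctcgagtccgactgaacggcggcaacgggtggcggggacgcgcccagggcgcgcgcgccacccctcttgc
Hoxa2, chr6:52164832-52165081, minus strand: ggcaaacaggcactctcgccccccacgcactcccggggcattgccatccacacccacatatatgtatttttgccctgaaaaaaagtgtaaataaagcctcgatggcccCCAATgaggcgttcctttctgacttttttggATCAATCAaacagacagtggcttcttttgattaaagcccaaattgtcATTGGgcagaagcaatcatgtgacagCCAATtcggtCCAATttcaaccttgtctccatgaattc

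The Hoxb4 window holds none of the 4 motifs and 14 CpG dinucleotides. The Hoxb8 window holds 2 TATAAA matches, 1 CCAAT and 1 TGATNNAT, with 12 CpG. The Hoxa5 window is the richest in CpG of the 4, with 28 and 1 CCAAT, and the Hoxa2 window has 4 CCAAT, 1 TGATNNAT and 6 CpG. TGANTCA is in none of these 4 windows. Of 32851 windows of this length before RefSeq starts, 6.75% hold TGANTCA, 7.68% TGATNNAT, 12.4% TATAAA and 33.8% CCAAT, and the median window has 6 CpG. These matches describe the letters of the windows and show no binding.

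In wildtype fibroblasts the b cluster was the most broadly active. Between 17 and 21 Hox genes were detected on a wildtype array (median 19) and between 8 and 15 on a knockout array (median 11), at a detection p under 0.01 for any probe of the gene. The b cluster gave 7 or 8 of its 10 genes on each wildtype array and between 0 and 3 on each knockout array. The knockout count of b genes was 0 or 1 on first-set arrays and 2 or 3 on second-set arrays, on which more probes were detected. The knockout count over all clusters was 8 to 13 in the first set and 13 to 15 in the second. Cluster a gave 5 to 7 genes on each array of either genotype, with a median of 6 in wildtype and 5 in knockout. Cluster c gave 3 to 6 in wildtype and 1 to 5 in knockout, and cluster d 1 to 3 and 1 to 5. The genotypes overlapped in the a, c and d clusters and did not overlap in the b cluster.

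**Figure D1:**
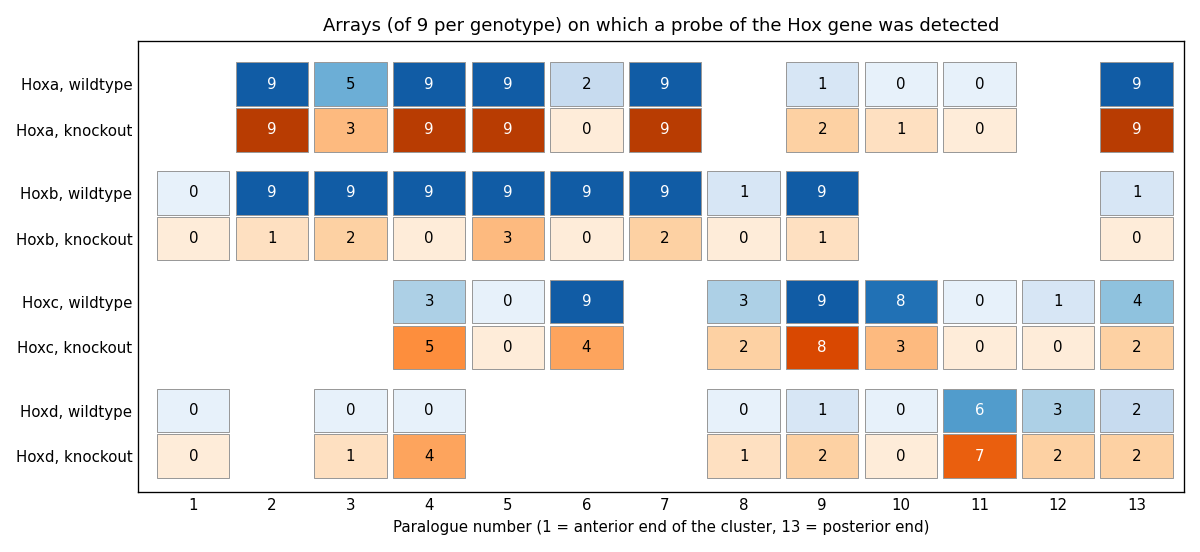
Each box gives the number of the 9 wildtype (upper, blue) or 9 knockout (lower, orange) arrays on which at least 1 probe of a Hox gene had a detection p under 0.01, by cluster (rows) and paralogue number (columns). Hoxb2 to Hoxb7 and Hoxb9 were detected on all 9 wildtype arrays and on 0 to 3 knockout arrays, while Hoxa2, Hoxa4, Hoxa5, Hoxa7 and Hoxa13 were detected on all 9 arrays of both.

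The genes detected on all wildtype arrays formed a nearly unbroken stretch in cluster b and were interspersed with dim genes in clusters a and c. From Hoxb2 to Hoxb9 every b gene other than Hoxb8 was detected on all 9 wildtype arrays. The ends of the cluster, Hoxb1 and Hoxb13, were detected on 0 and 1 arrays. In cluster a, Hoxa2, Hoxa4, Hoxa5, Hoxa7 and the far posterior Hoxa13 were detected on all 9 wildtype arrays, and Hoxa3, Hoxa6 and Hoxa9 to Hoxa11 were detected on 5 wildtype arrays or fewer. In cluster c Hoxc6 and Hoxc9 were detected on all 9 wildtype arrays, Hoxc10 on 8, and the other c genes on 4 or fewer. No gene of cluster d was detected on all arrays of a genotype. Hoxd11, a limb and posterior axis gene, came nearest, with 6 wildtype and 7 knockout arrays. Hoxa11, Hoxb1, Hoxc5, Hoxc11, Hoxd1 and Hoxd10 had a detection p under 0.01 on no array.

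At day 6, 11 of the 26 tested Hox genes were lower in the knockout fibroblasts than in wildtype, and 0 were higher. Over all 18128 features 28.4% differed at day 6 (limma, adjusted p under 0.05), 13.7% lower and 14.8% higher. The 11 genes were all 7 tested genes of cluster b (Hoxb2, Hoxb3, Hoxb4, Hoxb5, Hoxb6, Hoxb7 and Hoxb9), Hoxa2 and Hoxa5 of cluster a, and Hoxc6 and Hoxc9 of cluster c. The filter counts arrays of both genotypes. By their tested probes Hoxb2, Hoxb3, Hoxb4, Hoxb6 and Hoxb9 were detected on 0 or 1 knockout arrays, so they entered through the wildtype arrays. A gene that enters this way can hardly be higher in knockout, so 7 of 7 describes cluster b and does not test it. Hoxa3 and Hoxa6 entered in the same way, and Hoxd4 and Hoxd9 through knockout arrays. None of the 5 tested genes of cluster d passed. The median log2 difference of the 26 genes was -0.39 and that of cluster b -5.06, against 0.02 over all features. At day 4, 13 Hox genes were lower and 0 higher, where 19.1% of all features differed, 9.28% lower and 9.79% higher. Day 2 also had 13 lower and 0 higher, with 20% of all features different, 10% lower and 9.97% higher. Over the mean of days 2, 4 and 6, 14 were lower and 0 higher, against 37.9% of all features, 18% lower and 20% higher. The same 11 genes passed at all 3 days, and 14 passed at any of them, the others being Hoxa3, Hoxa7 and Hoxc10. Each of the 11 lay lower on all 9 knockout arrays than on all 9 wildtype arrays, day 0 included, which was so for 6.51% of all features.

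**Figure D2:**
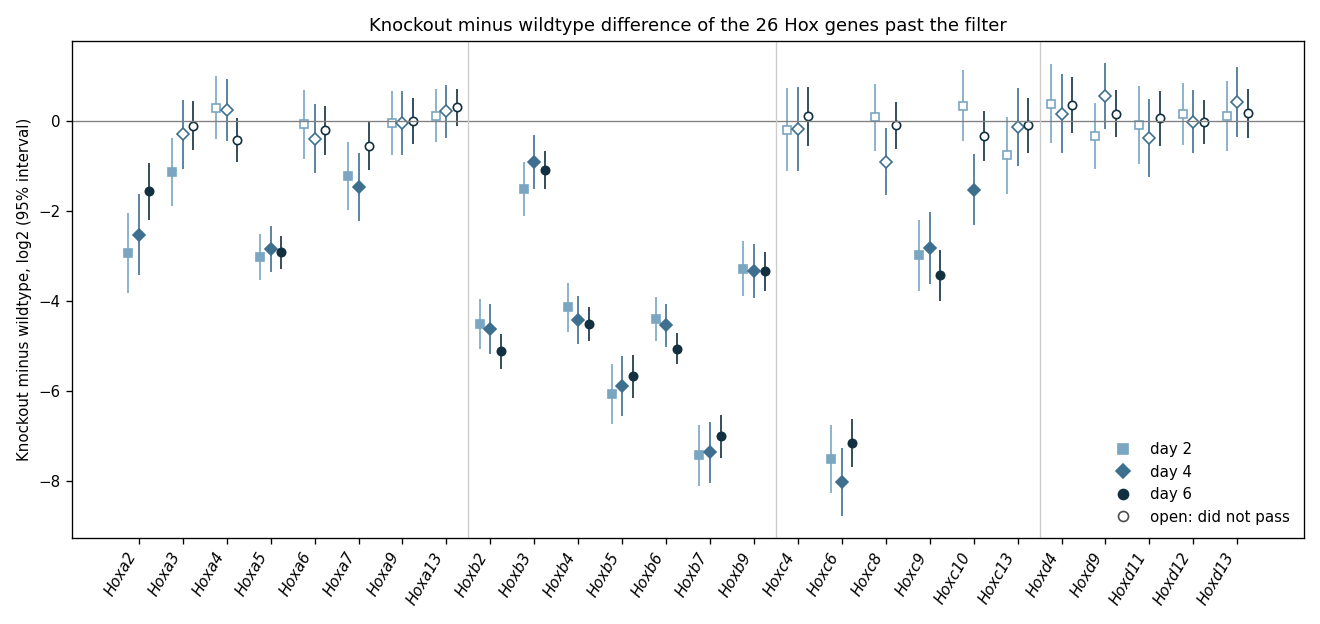
Knockout minus wildtype difference in log2 signal, with its 95% interval, for the 26 Hox genes past the detection filter at days 2, 4 and 6, in cluster and paralogue order; filled symbols passed an adjusted p of 0.05. The 7 b genes were lower at all 3 days, and no symbol of cluster d is filled.

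The genes of cluster b lie on chromosome 11 (96194316 to 96368254 from Hoxb13 to Hoxb1, GRCm38.p6) and gave the most uniform change. Hoxb2, which acts in hindbrain segments and facial motor neurons, ran from 8.92 to 9.74 (median 9.51, normalized log2 signal) in wildtype and from 4.42 to 5.42 (median 4.52) in knockout. The genotypes were apart by more than 3 log2 units, and the probe was detected on 1 knockout array. At day 6 it was undetected in knockout and at least 32.7-fold lower (log2 difference -5.12 ± 0.18, adjusted p = 8.92e-14). Such a fold sets the wildtype mean against, on each knockout array, the probe's own signal or the lowest signal of any detected probe, whichever is higher. It holds on the background-corrected scale, and an undetected probe can lie above that lowest signal. Without background correction the day 6 differences of the b genes were smaller, at -2.74 for Hoxb2, -0.28 for Hoxb3, -2.15 for Hoxb4, -3.63 for Hoxb5, -2.61 for Hoxb6, -4.67 for Hoxb7 and -1.39 for Hoxb9, and each still passed.

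Hoxb4, known for the growth of blood stem cells, was at 8.31 to 9.02 (median 8.75) in wildtype and 4.14 to 4.58 (median 4.27) in knockout. It was detected on every wildtype array and no knockout array, a pattern that 0.48% of all features had. Its signal at day 6 was at least 18.6-fold lower in knockout (-4.51 ± 0.18, adjusted p = 4.23e-13). Hoxb6, a gene of the thoracic region and of lateral mesoderm, had the same pattern on its tested probe, with 8.49 to 9.46 (median 9.18) in wildtype and 4.18 to 4.80 (median 4.40) in knockout. It was at least 27.6-fold lower at day 6 (-5.06 ± 0.16, adjusted p = 1.86e-14).

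Hoxb5, a gene of the shoulder level of the body axis, ran from 9.12 to 10.80 (median 10.42) in wildtype and from 4.12 to 5.41 (median 4.25) in knockout. The knockout arrays on which it was detected were the 3 day 6 arrays of the second set, at 5.41, 5.40 and 4.97, and the first-set day 6 array was at 4.12. Its day 6 difference was -5.68 ± 0.23 (adjusted p = 3.20e-13). At day 2 it was at least 50.6-fold lower, and at day 4 at least 43.7-fold lower, since no knockout array of those days detected it.

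Hoxb7, a thoracic patterning gene, had the brightest b probe, at 11.53 to 11.89 (median 11.84) in wildtype and 4.16 to 5.57 (median 4.39) in knockout. The wildtype arrays spanned less than 0.4 log2 units over all days. The day 6 difference was -7.002 ± 0.23 (adjusted p = 2.05e-14), with 2 of 4 knockout arrays detected, and the fold was at least 149 at day 2 and at least 137 at day 4. A further Hoxb7 probe gave -6.39 ± 0.17 at day 6 when every probe was fitted on its own. Both probes were near background in knockout, so neither value measures the size of the change.

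Hoxb9, which patterns the ribs, ran from 7.56 to 8.20 (median 7.76) in wildtype and from 4.20 to 4.81 (median 4.37) in knockout, with 1 knockout array detected. Its day 6 difference was -3.35 ± 0.20 (adjusted p = 1.64e-10). Hoxb3, a gene of the hindbrain and pharyngeal arches, was the dimmest gene of the cluster to pass, at 5.30 to 5.99 (median 5.48) in wildtype and 4.19 to 4.96 (median 4.41) in knockout. It was at least 2.02-fold lower at day 6 (-1.10 ± 0.20, adjusted p = 2.73e-04), and its day 4 call (adjusted p = 0.0299) was lost without replicate 1 of either genotype (0.224 and 0.25). The transcription unit annotated as Hoxb3 spans that of Hoxb4, and its 4 probes did not act alike: one further probe was detected on 8 wildtype and 0 knockout arrays and was at -0.87 ± 0.20 at day 6 (adjusted p = 0.0027), another on 3 and 2 arrays was at -0.24 ± 0.26 (adjusted p = 0.62), and the last was detected nowhere.

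The remaining b genes were detected on at most 1 wildtype array. Hoxb8 and Hoxb13 have 1 probe each, and a silent gene cannot be told from a probe that fails to read it. Hoxb8, whose neighbours Hoxb7 and Hoxb9 were both on in wildtype, was detected on 1 of 9 wildtype arrays and no knockout array. Its only probe ran from 4.22 to 4.92 in wildtype and from 4.14 to 4.63 in knockout. Hoxb13, a gene of the tail end of the body and of the prostate, was detected on 1 wildtype array and no knockout array, and Hoxb1, a gene of the hindbrain, on none. A further transcript of the cluster, the long noncoding RNA gene Gm53 (chr11:96251660-96264484, between Hoxb13 and Hoxb9), was measured. It ran from 5.24 to 6.36 in wildtype and from 4.13 to 4.34 in knockout, was detected on 9 wildtype and 0 knockout arrays, and was at least 1.7-fold lower at day 6 (-1.11 ± 0.18, adjusted p = 7.40e-05).

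**Figure D3:**
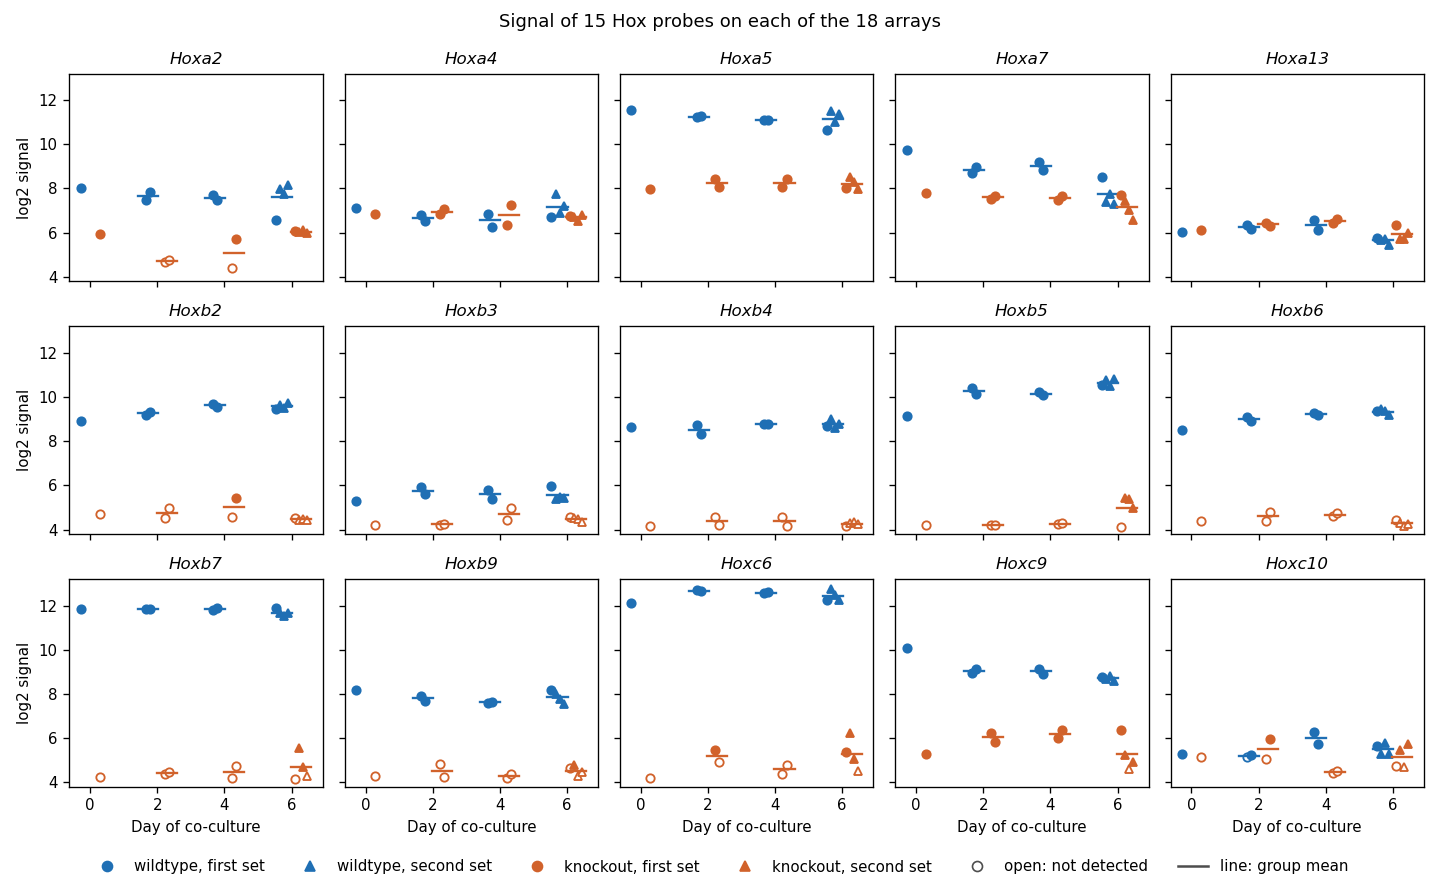
Normalized log2 signal of 15 Hox probes on each of the 18 arrays by day of co-culture, in wildtype (blue) and knockout (orange); circles are the first processing set, triangles the second, open symbols were not detected and lines are group means. Hoxb2, Hoxb4, Hoxb5, Hoxb6, Hoxb7, Hoxb9 and Hoxc6 lie above 7.5 on every wildtype array and below 6.3 on every knockout array.

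In cluster c, on chromosome 15, Hoxc6 and Hoxc9 were lower in knockout. Hoxc6, a gene of the upper thoracic region, ran from 12.14 to 12.75 (median 12.57) in wildtype and from 4.21 to 6.25 (median 4.90) in knockout. It was detected on 4 knockout arrays, and its lowest wildtype value stood 5.89 above its highest knockout value. The difference was -7.15 ± 0.25 at day 6 (adjusted p = 7.42e-14), and -7.50 ± 0.36 on day 2. On day 4 no knockout array detected it, and it was at least 229-fold lower.

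Hoxc9, which sets thoracic identity, fell in knockout but stayed on, with 8 of 9 knockout arrays detected. It ran from 8.60 to 10.08 (median 8.92) in wildtype and from 4.62 to 6.38 (median 5.84) in knockout, and the day 6 difference was -3.44 ± 0.27 (adjusted p = 6.10e-09), or -1.80 without background correction. Hoxc10, a gene of the lumbar level, was dim, at 5.14 to 6.30 in wildtype and 4.43 to 5.98 in knockout, and the genotypes overlapped. It passed at day 4 (at least 2.47-fold lower, adjusted p = 0.0060) and not at day 2 (0.34 ± 0.38, adjusted p = 0.63) or day 6 (-0.34 ± 0.27, adjusted p = 0.43), and without wildtype replicate 1 of day 4 the adjusted p was 0.0876. Hoxc8, which lies between Hoxc6 and Hoxc9, was detected on 3 wildtype and 2 knockout arrays and did not pass at any day. At day 4 it was at -0.91 ± 0.36 (adjusted p = 0.0857), and among the first-set arrays alone it passed at that day (adjusted p = 0.0407) and over the mean of days (0.041). Hoxc4 was detected on 3 and 5 arrays and Hoxc13, a hair gene, on 4 and 2. The day 6 differences were 0.10 (95% interval -0.56 to 0.75) for Hoxc4, -0.10 (-0.63 to 0.42) for Hoxc8 and -0.10 (-0.72 to 0.51) for Hoxc13. Hoxc5 and Hoxc11 were detected on no array and Hoxc12 on 1 wildtype array, and they were not tested.

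Cluster a, on chromosome 6, kept its active genes in both genotypes, and they differed in how far they moved. Hoxa5, known for the lung and the neck-to-chest transition, ran from 10.63 to 11.53 (median 11.23) in wildtype and from 7.96 to 8.53 (median 8.07) in knockout, detected on all 18 arrays. The genotypes were apart by 2.10 log2 units or more, and the day 6 difference was -2.92 ± 0.17 (adjusted p = 1.08e-10). Hoxa2, which gives the second pharyngeal arch its identity, ran from 6.56 to 8.16 (median 7.73) in wildtype and from 4.38 to 6.11 (median 5.94) in knockout.

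The day 6 difference of Hoxa2 was -1.57 ± 0.30 (adjusted p = 4.57e-04), or -0.82 without background correction, and the knockout arrays were all detected there, while at day 2 neither knockout array was and the fold was at least 7.52. The first set has 1 array of each genotype at day 6, with wildtype at 6.56 and knockout at 6.07, a difference of -0.50 with no replicate. A further Hoxa2 probe, detected on all 18 arrays, gave differences of -1.99 ± 0.25 (day 6), -1.78 ± 0.36 (day 4) and -1.86 ± 0.36 (day 2), with no day standing apart. On the tested probe, day 6 minus day 2 in knockout was 1.32 ± 0.37 and did not pass (adjusted p = 0.176).

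Hoxa7, a thoracic gene, was on in every sample, with its lowest values in both genotypes on the second-set arrays of day 6. It was at 9.73 at day 0 in wildtype, between 8.68 and 9.21 at days 2 and 4, at 8.53 on the first-set array of day 6 and at 7.36, 7.77 and 7.27 on the second-set arrays. In knockout it was at 7.77 at day 0, between 7.46 and 7.67 at days 2 and 4, at 7.70 on the first-set array of day 6 and between 6.56 and 7.44 on the others. It was lower in knockout at day 2 (-1.23 ± 0.36, adjusted p = 0.019) and day 4 (-1.47 ± 0.36, adjusted p = 0.0063). The day 4 call was lost without replicate 1 of either genotype (adjusted p = 0.0777 and 0.0553), and the day 2 call without any one of its 4 arrays (0.0574 to 0.139). At day 6 the difference of -0.56 ± 0.26 did not pass (adjusted p = 0.121), but it passed with a replicate block (adjusted p = 0.0218) and with the processing set as a block (adjusted p = 0.0213).

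Not every active a gene was lower. Hoxa4 and Hoxa5 both lie within the transcription unit annotated as Hoxa3. Hoxa4 was detected on all 18 arrays at 6.27 to 7.73 (median 6.83) in wildtype and 6.34 to 7.23 (median 6.78) in knockout, and the genotypes overlapped. Its difference was -0.44 at day 6, with a 95% interval from -0.93 to 0.05, and 0.03 over the mean of days 2, 4 and 6, with an interval from -0.34 to 0.39. Hoxa13, a gene of the digits and the tail end of the body, was read at 5.43 to 6.57 in wildtype and 5.71 to 6.63 in knockout by its tested probe, detected on all arrays. Its other probes were detected on 4 and 3, and on 0 and 1, of the wildtype and knockout arrays, so the probes disagree on whether the gene is on. Hoxa6 and Hoxa9 were detected on 2 and 1 wildtype and on 0 and 2 knockout arrays, and at day 6 their differences were -0.22 (95% interval -0.76 to 0.32) and -0.01 (-0.51 to 0.49). Hoxa10 was detected on 0 wildtype and 1 knockout arrays and was not tested. Hoxa3 passed at day 2 (adjusted p = 0.031), but of its 4 probes the tested one was detected on 4 wildtype and 1 knockout arrays, and without wildtype replicate 1 of day 2 the adjusted p was 0.32.

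Cluster d, on chromosome 2, gave no difference past the test. Hoxd4, Hoxd9, Hoxd11, Hoxd12 and Hoxd13, of which the last 3 pattern the digits and forearm, had day 6 differences between -0.04 and 0.34, and none passed at day 2 or day 4. The 95% intervals were -0.28 to 0.96 for Hoxd4, -0.36 to 0.67 for Hoxd9, -0.57 to 0.67 for Hoxd11, -0.53 to 0.45 for Hoxd12 and -0.39 to 0.71 for Hoxd13. Hoxd4 was detected on 0 wildtype and 4 knockout arrays, Hoxd9 on 1 and 2, Hoxd11 on 6 and 7, Hoxd12 on 3 and 2 and Hoxd13 on 2 and 2. Hoxd3 and Hoxd8 were each detected on 1 knockout array and no wildtype array, Hoxd1 and Hoxd10 on none, and these 4 were not tested. The tested signals lay near the background, with Hoxd11 at most at 5.74 in wildtype and 5.73 in knockout, which leaves little room for a fall to be seen.

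The genotype difference was in place before co-culture. With 1 array per genotype at day 0 no test was made there, and the values stand side by side. Hoxb7 was at 11.86 in wildtype and 4.25 in knockout, Hoxc6 at 12.14 and 4.21, Hoxb5 at 9.12 and 4.20, and Hoxa5 at 11.53 and 7.97. For all 11 genes lower at days 2, 4 and 6 the knockout value was also the lower at day 0, by -1.11 (Hoxb3) to -7.93 (Hoxc6).

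No Hox gene passed in a comparison of days. Between day 0 and day 2, in the mean of both genotypes, 0 of 26 passed, with 9.55% of all features past the test, 3.97% lower and 5.58% higher at day 2. Between day 2 and day 6 no Hox gene passed in wildtype (0.0386% of features) or in knockout (0%), and none had a genotype difference that changed from day 2 to day 6 (0%). At an unadjusted p under 0.05 in limma, 4 Hox genes passed for day 2 against day 0 (1 lower, 3 higher), 4 for day 6 against day 2 in wildtype (3 lower, 1 higher), 3 in knockout (1 lower, 2 higher) and 3 for the difference between them. The share of all features at that unadjusted threshold was not taken, so these counts show neither an excess nor a lack of Hox genes. Hoxb5 in wildtype was at 9.12 on the day 0 array and between 10.09 and 10.80 on the 8 later arrays, for a day 2 minus day 0 difference of 1.16 ± 0.39 (adjusted p = 0.136), in a comparison that 2.92% of features passed and in which the single day 0 array is assumed to vary like the arrays of the other groups. Within the 12 arrays of the first set, day 2 minus day 0 in the mean of both genotypes was 0.59 for Hoxb5, 0.75 for Hoxc6 and -0.54 for Hoxa7. These lay past the threshold there, as did a larger share of all features, and day 0 is again 1 array per genotype. Without the first-set array of day 6, day 6 against day 2 passed for Hoxa7 in wildtype (-1.35, adjusted p = 0.0136) and for Hoxb5 (1.05), Hoxc9 (-1.12) and Hoxa2 (1.31) in knockout. Of all 18128 features 1061 then passed in wildtype and 1967 in knockout, so these few of 26 Hox genes do not stand out. The comparison then sets 3 second-set arrays against 2 first-set arrays.

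On the background-corrected scale no tested neighbour of cluster b differed at day 6 by as much as any tested b gene. Of the 5 nearest protein-coding genes on each side of each cluster, 40 in all, 32 were tested, and at day 6, 7 were lower and 3 higher in knockout, with a median difference of -0.27. That is 10 of 32, beside the 28.4% of all features that differed. Beside cluster b, 6 neighbours were tested, of which Snx11 (-0.60 ± 0.13) and Nfe2l1 (-0.52 ± 0.11), on the side of Hoxb1, were lower, each detected on all 18 arrays. Skap1, the neighbour next to Hoxb1, was at -0.03 ± 0.22 (adjusted p = 0.957), detected on 3 arrays of each genotype. On the side of Hoxb13 the nearest genes, Ttll6, Calcoco2 and Atp5g1, were not tested, nor was Cbx1 on the side of Hoxb1. A change right beside the Hoxb13 end could therefore not be seen. The largest difference of a neighbour was that of Creb5, a transcription factor gene of the ATF and CREB family and the fifth gene beyond Hoxa13, at -2.29 ± 0.28 (adjusted p = 2.88e-06), detected on 9 wildtype and 2 knockout arrays. Beside the c cluster Atf7 (-0.77 ± 0.14) and Smug1 (-0.63 ± 0.12) were lower, and beside the a cluster Snx10 (-0.49 ± 0.16) and Hibadh (-0.48 ± 0.09). Beside the d cluster Lnpk (0.59 ± 0.19), Agps (0.45 ± 0.11) and Atf2 (0.44 ± 0.14) were higher.

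**Figure D4:**
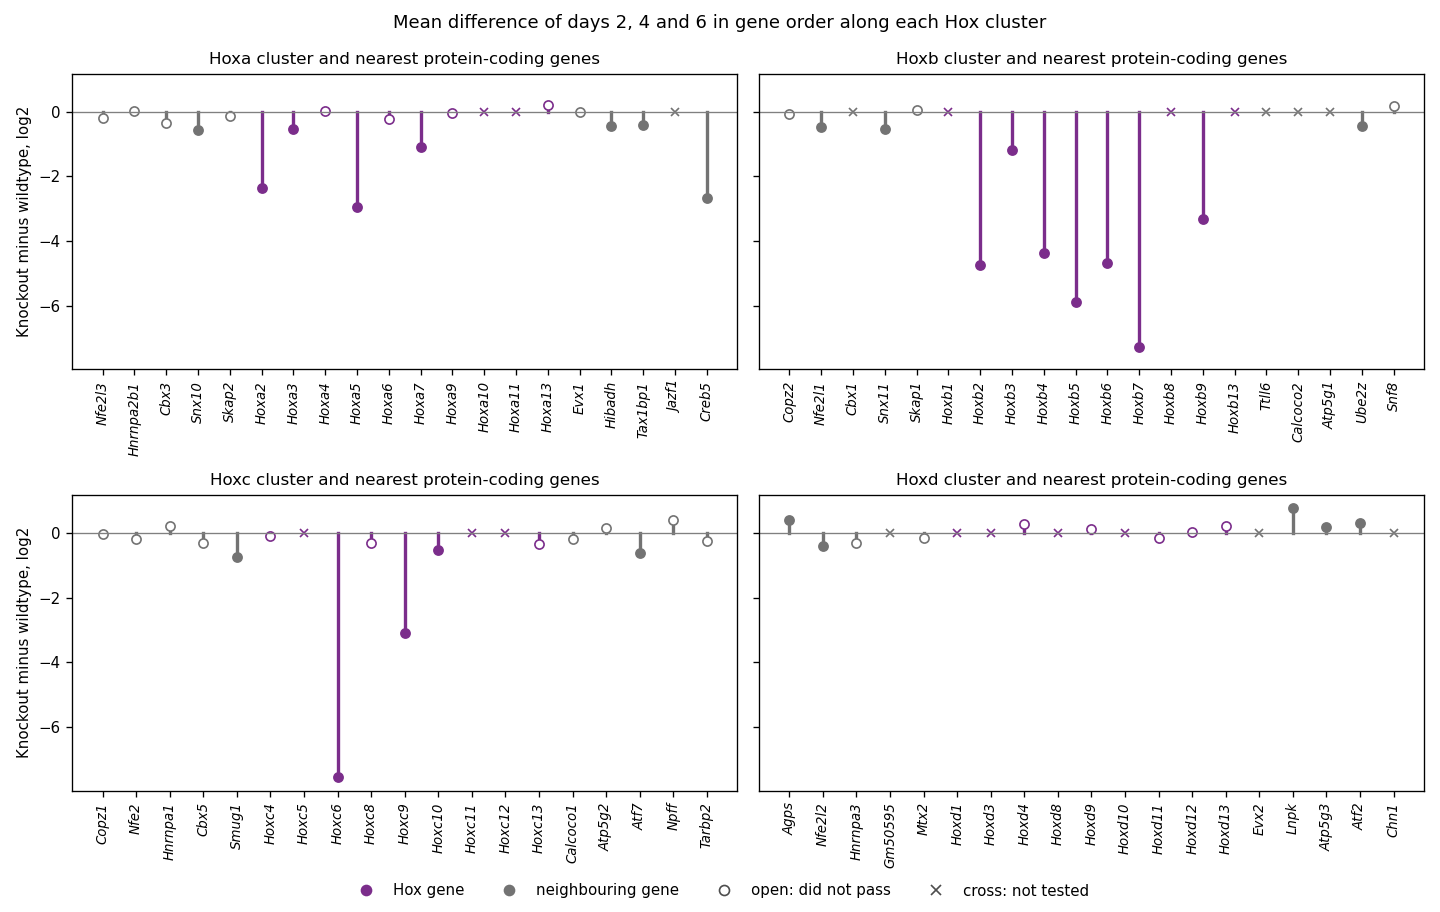
Knockout minus wildtype log2 difference over the mean of days 2, 4 and 6 for the Hox genes (purple) and the 5 nearest protein-coding genes on each side (grey), in order along each cluster from the low-numbered end; filled points passed an adjusted p of 0.05, and crosses were not tested. Genes undetected in knockout are drawn at the fitted value, which depends on the background. All tested b genes lie below the 6 tested neighbours of their cluster.

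The proteins that work with Hox proteins or regulate Hox genes were read from lists chosen for this purpose. Of 9 Pbx, Meis and Pknox cofactor genes, 8 were tested, and at day 6, 4 were lower and 0 higher in knockout. Meis1 was at 9.73 to 10.66 in wildtype and 8.14 to 9.22 in knockout (-1.79 ± 0.19, adjusted p = 4.18e-07), and Meis2 (-0.89 ± 0.17), Pbx3 (-0.78 ± 0.25) and Pbx2 (-0.73 ± 0.22) were also lower. All 4 were detected on every array of both genotypes.

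Of 20 tested Polycomb genes 2 were lower and 7 higher at day 6. Cbx7, a subunit of the complex that reads methylated histone H3, was undetected on all 9 wildtype arrays (4.15 to 4.94) and detected on all 9 knockout arrays (5.19 to 6.13), at least 2.36-fold higher at day 6 (1.57 ± 0.23). Cbx2 (0.91 ± 0.23) and Cbx8 (0.65 ± 0.21), of the same family, were higher, and Phf19, an accessory of the complex that places the methyl mark, was lower (-0.93 ± 0.22). Of 11 Trithorax group and demethylase genes 1 was lower, the histone methyltransferase gene Kmt2d (-0.68 ± 0.21), and 4 were higher, among them Kdm6a (0.97 ± 0.17), which removes the methyl mark, and Wdr5 (0.64 ± 0.19) and Psip1 (0.61 ± 0.10).

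Among 15 tested Cdx and retinoid genes, which act upstream of Hox genes in the embryo, 3 were lower and 3 higher. Cdx2, a caudal homeodomain factor that activates Hox genes in the embryo's tail end, ran from 4.25 to 5.43 in wildtype, detected on 2 of 9 arrays, and from 9.27 to 10.07 in knockout, detected on all 9. The genotypes did not overlap, and the difference was 5.07 ± 0.25 at day 6 (adjusted p = 1.06e-11). Of the genes of retinoic acid, which induces Hox genes, the receptor gene Rarb was lower (-1.31 ± 0.26), and Cyp26b1, which breaks retinoic acid down (2.32 ± 0.29), and Stra6, which takes up its precursor retinol (1.52 ± 0.31), were higher. In the order cofactor, Polycomb, Trithorax, and Cdx and retinoid genes, the counts lower and higher at day 4 were 1 and 0, 3 and 2, 1 and 1, and 2 and 2. At day 2 they were 3 and 0, 2 and 2, 0 and 2, and 3 and 2. Counts per list stand beside the 13.7% of all features lower and 14.8% higher at day 6, 9.28% and 9.79% at day 4, and 10% and 9.97% at day 2. What they have to do with the Hox genes was not tested.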

How the data were processed

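Values came from 18 single-colour Illumina bead arrays. The authors deposited bead intensities and detection p-values per probe, and a log2 table which, set against those intensities, is their quantile-normalized log2 with no background subtraction. The deposited intensity values are not background-corrected. The deposited detection p-values are 2-sided on 6 arrays and were made 1-sided. Intensities were corrected by normexp from the detection p-values, with an offset of 16, and quantile normalized (limma 3.58.1, R 4.3.3). Probes with a detection p under 0.01 on at least 2 arrays were kept, and the probe of highest mean signal stood for a gene. Genes were named from the platform annotation, in which 34763 probes have 1 symbol, 18 several and 10340 none. The limma model had a mean per group over all 18 arrays, a mean-variance trend and Benjamini-Hochberg adjustment over all 18128 features, at 0.05. It was tested on simulated data with independent normal noise and known changes at day 6. These held no background floor, processing set or difference between lines, so they do not test the model for dim genes.

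All Hox genes were named, and of each other list at most the 4 largest differences past the threshold at day 6 (all such genes for those beside the clusters). The members and lists were chosen with earlier results of these data known. Replicate numbers come from the labels. At day 6 the deviations of same-numbered arrays correlated at 0.567 (replicate 1, the first-set arrays), 0.110, 0.249 and 0.157. Arrays of different number reached 0.243 (wildtype 4 with knockout 2) and 0.199 (wildtype 2 with knockout 4), so these values do not show the numbers to be pairs. Same-numbered arrays were at -0.0088 at day 2 and at -0.112 at day 4. The main model used no pairs. The replicate block, an alternative, paired arrays by number at every day. The number of arrays limits the precision. Alternatives covered background correction, scaling, the filter, the trend, the deposited log2 table, the processing set and the replicate as blocks, either set alone, and each array left out.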

Additional observations from a re-analysis of the deposited data

Results flagged for a closer look

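In 2 of 52 groups of 4 arrays tested, 1 array stood far from the others, and chance does so in about 1 in 20 groups. Hoxd13 in wildtype at day 6 was at 5.30 on replicate 1 and between 4.19 and 4.24 on the other 3 arrays. Hoxb3 in wildtype at day 6 was at 5.99 on replicate 1 and between 5.40 and 5.48 on the others. Replicate 1 is in both cases the array of the first processing set.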

How the results depend on the processing

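Of 425 counts under alternatives 384 stayed within 1.5 times, counts of 0 that stayed at 0 included, and of 3642 values of single Hox genes 3580 kept their side of the threshold. Of these 3642, 950 belong to differences that passed, of which 46 lost the call and 0 changed sign, and 2692 to differences that did not, of which 16 gained a call and 229 changed sign. Without background correction, and in the authors' table, the log2 differences at day 6 were 1.16 to 3.95 times smaller for the 11 genes, Hoxa5 least and Hoxb3 most, with Hoxc6 at -5.21, Hoxc9 at -1.80, Hoxa2 at -0.82 and Hoxa5 at -2.53, and all 11 passed. Hox genes lower in knockout numbered 11 to 12 at day 6, 10 to 14 at day 4, 11 to 13 at day 2 and 12 to 14 over the mean of days, with 0 higher. Of the 11 genes lower at each day, Hoxa2 did not pass at day 6 within the first set, where 1 array stands against 1 and other groups supply the spread, and Hoxb3 lost its call at day 4 under several alternatives. Under median scaling the features past the threshold were 3177 at day 6, 1515 at day 4, 1717 at day 2, 252 for day 2 against day 0 and 1 for day 6 against day 2 in wildtype. For day 2 against day 0 they were 529 in wildtype alone, 821 in knockout alone, 3695 on the first-set arrays and 2862 with a block for the set. For day 6 against day 2 in wildtype they were 24 without background correction, 24 from the authors' table, 20 without the filter and 2 with the set as a block. In knockout they were 48 without the filter, 6 without the trend and 1 within the first set.

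Leaving out 1 array gave 4557 to 5179 features at day 6, 2219 to 2563 at day 4, 2331 to 2493 at day 2, 6181 to 7138 over the mean of days, 1011 to 1147 for day 2 against day 0, 0 to 1061 for day 6 against day 2 in wildtype and 0 to 1967 in knockout, the highest of the last pair without day 6 replicate 1 of that genotype. It gave 0 to 1 Hox gene lower in wildtype, and 0 to 1 lower and 0 to 2 higher in knockout, between day 2 and day 6. For day 2 against day 0, 2 Hox genes were lower without the filter (Hoxc11 and Hoxc12), 1 lower and 2 higher within the first set, and 1 higher (Hoxb5) without background correction and in the authors' table. At a detection p of 0.05 the median numbers of Hox genes detected were 21 and 15. With the replicate block, 5753 features and 12 Hox genes passed at day 6, Hoxa7 being added, and over the mean of days 13 Hox genes passed, Hoxc10 being lost (adjusted p = 0.0555). The block changed no other Hox call. Crossing the day 4 numbers gave 4445 features and 13 Hox genes. The causes were not tested. Signal near the background limits the dim genes.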
